A study of Mus musculus with 12 samples.

Results

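miR-21 (mmu-miR-21 on the array) is the guide strand of the Mir21a precursor, the strand that is loaded into the silencing complex, and it was measured in mouse bone marrow cultures as they formed osteoclasts. It was chosen by name and is 1 of the 696 mouse miRNAs on the array. Marrow came from male C57BL/6 mice aged 6 to 8 weeks and was depleted of cells that carry B220/CD45R or CD3, which mark B and T lymphocytes. All cultures received M-CSF (30 ng/ml), on which osteoclast precursors depend, together with RANKL (30 ng/ml), which makes them fuse into bone-resorbing osteoclasts. RNA was taken after 1, 3 or 5 days, and 4 cultures per day were each hybridized to 1 single-color array, which gives 12 arrays. No culture without RANKL is among them, so a change with time cannot be told apart from a change with RANKL, and the cultures remain a mixture in which fewer cells of a type and less RNA per cell cannot be told apart.

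miR-21 is an abundant miRNA of myeloid cells and is known as a promoter of osteoclast formation. Its best known target in this lineage is Pdcd4, a repressor of AP-1 activity. The AP-1 factor c-Fos, which RANKL induces and without which osteoclasts do not form, in turn activates transcription of Mir21a, so that miR-21 and c-Fos are linked in a positive loop.

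The miRNA that the array calls miR-21 is now named miR-21a-5p. Its sequence is printed because the identity of the probes, and the comparison with its relatives, rests on it. Capitals mark the seed, bases 2 to 8 from the 5′ end, which pairs with targets.

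mmu-miR-21a-5p: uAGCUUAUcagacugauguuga

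mmu-miR-21a-3p (miR-21* on the array): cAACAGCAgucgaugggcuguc

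mmu-miR-21c: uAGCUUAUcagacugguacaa

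mmu-miR-21b: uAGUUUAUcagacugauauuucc

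These are RefSeq sequences (GRCm38.p6). The guide strand lies at chr11:86584120-86584141 on the minus strand, and miR-21* is cut from the other arm of the same hairpin, at chr11:86584082-86584103. The precursor gene Mir21a (chr11:86584067-86584158) lies inside a single annotated gene, Vmp1, which codes for a membrane protein of autophagy and runs on the same strand. Mir21a ends 209 bases from the end of Vmp1. Of 1679 mature mouse sequences in the RefSeq table, 2 carry the seed AGCUUAU: miR-21a-5p itself and miR-21c. miR-21c shares 16 positions with miR-21 counted from the 5′ end, and miR-21b shares 18 but has another seed. Neither relative has an entry of that name on the array. The array's entry miR-590-5p was not compared, since the table lists no miR-590.

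The array holds 2 probes for miR-21, each printed in 10 spots. They are shown because they differ by 1 base and because the results turn on that difference in brightness. Capitals mark the bases that pair with the seed.

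A_54_P1307: tcaacatcagtctgATAAGC

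A_54_P1308: tcaacatcagtctgATAAG

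The longer probe (P1307) has 20 bases and pairs with bases 3 to 22 of the miRNA. The shorter probe (P1308) has 19 bases and pairs with bases 4 to 22. Neither sequence is fully complementary to any other mature miRNA in the table, and the longest matched stretch to miR-21b is 13 bases for both probes. To miR-21c the longest stretch is 13 bases for the longer and 12 for the shorter probe.

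miR-21 was bright enough to fill the range of the scanner on every array. The software marks a spot as saturated when most of its pixels lie at the upper limit of the scanner: among miR-21 spots the marked ones had 56.5% to 100% of their pixels there, and the others at most 45.3%. Its saturation value on all arrays was 65502 units. Of the 240 miR-21 spots over the 12 arrays, 215 were saturated. The longer probe was saturated in 120 of its 120 spots. The shorter probe was saturated in 40 of 40 spots at day 1 and in 40 of 40 at day 5, but in 15 of 40 at day 3. The 25 spots below saturation all belonged to the shorter probe at day 3, and their processed signals lay between 53924 and 61358 units. These 25 spots still had 12.7% to 45.3% of their pixels at the upper limit of the scanner, so their signals are cut off in part. Every other spot of miR-21 was saturated. All 240 spots therefore give lower limits of the level, and no fold change between day 1 and day 5 is given.

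**Figure D1:**
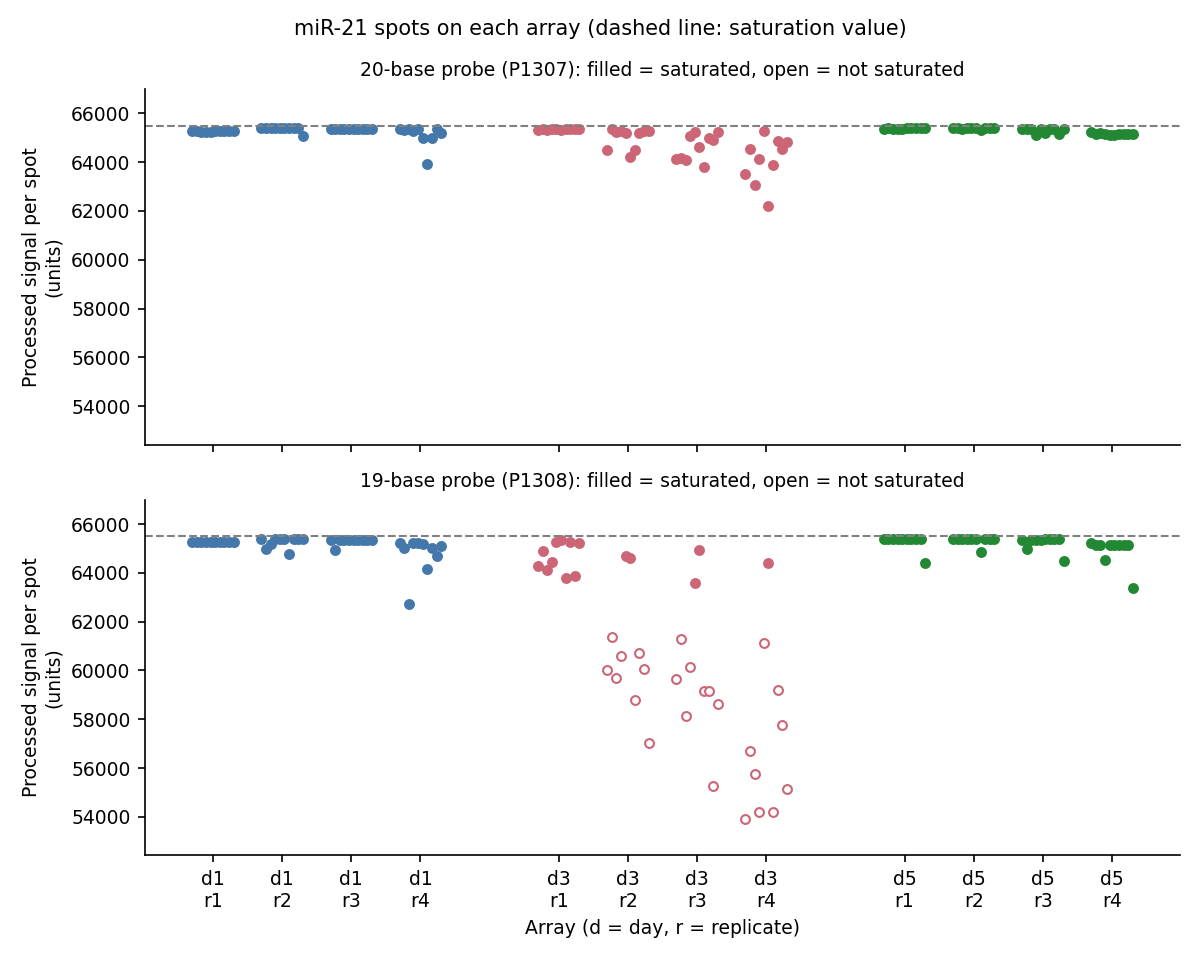
Processed signal of each miR-21 spot (units, background subtracted) on the 12 arrays, for the longer probe above and the shorter probe below. Each point is a spot, filled where saturated and open where not, and the dashed line is the saturation value of 65502 units. The 25 open points all lie in the day 3 arrays of the shorter probe. The vertical axis does not start at 0.

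On 3 of the 4 day 3 arrays most spots of the shorter probe were not marked saturated, though part of their pixels stayed at the limit. Its mean processed signal over all 10 spots was 65268, 65273, 65309 and 64760 units on the day 1 arrays. At day 3 it was 64653, 60752, 59989 and 57240 units. At day 5 it was 65285, 65343, 65236 and 64919 units. The highest day 3 array therefore lay just under the lowest array of day 1, and the other 3 lay clearly below. The difference of the means between day 3 and day 1 was -4493 units (exact two-sided permutation test, n = 4 against 4, p = 0.0286, the smallest p that 70 splits can give, and 0.0857 after adjustment over 6 comparisons of the 2 probes). Between day 5 and day 1 it was 43.8 units (exact permutation p = 0.686). Every spot of this probe was saturated on both days, so this test cannot tell equal levels from different ones. The spread among the 10 spots was larger where fewer were saturated: the coefficient of variation reached 6.03% at day 3 against at most 1.21% at days 1 and 5.

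The share of saturated pixels, which still varies when whole spots are marked saturated, showed the same arrays. For the shorter probe it was 100%, 99.4%, 99.8% and 93.7% at day 1. It was 85.3%, 47.5%, 38.9% and 29.6% at day 3, and 99.7%, 99.8%, 99.7% and 99.4% at day 5. Day 3 did not overlap either of the other days. The mean of the 4 arrays was 50.3% at day 3 (SD 24.4, n = 4). It was 98.2% at day 1 (SD 3.05, n = 4), and day 5 averaged 99.6% (SD 0.199, n = 4). Day 3 minus day 1 was -47.9 percentage points (exact permutation p = 0.0286, adjusted 0.0857), and day 5 minus day 3 was 49.3 (exact permutation p = 0.0286, adjusted 0.0857), so neither difference passed 0.05 after adjustment. Leaving out any 1 array kept both differences on the same side, between -59.6 and -41.0 for day 3 against day 1 and between 42.4 and 61.0 for day 5 against day 3.

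The longer probe varied less. Its share of saturated pixels was between 98.9% and 100% at day 1 and between 99.5% and 100% at day 5, and it was 99.7%, 89.1%, 81.5% and 76.0% at day 3. The 4 day 3 arrays stood in the same order by both probes. For this probe day 3 overlapped day 1 (exact permutation p = 0.0571, adjusted 0.0857).

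**Figure D2:**
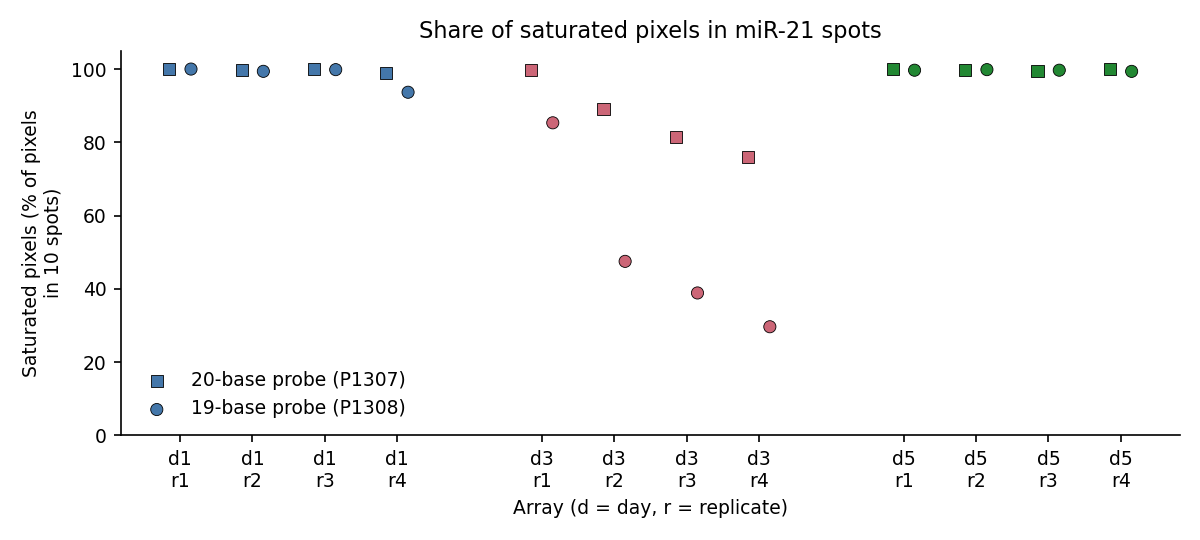
Share of saturated pixels in the 10 spots of each miR-21 probe (percent) on each array. Squares are the longer and circles the shorter probe. At days 1 and 5 all points lie at or above 93.7%, and at day 3 the circles lie between 29.6% and 85.3%.

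These day 3 values carry a limit that the design sets. Slide 1 held days 1 and 5 and slide 2 held day 3, each with its own scan, so day 3 and slide cannot be told apart. Most other miRNAs were dimmer there too. Of the 148 miRNAs detected on all 12 arrays, 122 had a lower mean signal before normalization at day 3 than at day 1, with a median difference of -0.58 on the log2 scale, and for 50.7% of the 148 all 4 day 3 arrays lay below all 4 day 1 arrays. For miR-21 the difference of the unnormalized log2 total signals was -0.07, at a ceiling that limits how far a fall can show. Of 11 array controls detected on all arrays, 10 overlapped between day 3 and day 1, with day 3 means between 70.5% and 106% of day 1. Of these, 3 were themselves saturated in every spot on every array. For the controls dmr_285, dmr_31a and mr_1 the overlap came from day 1 replicate 4 alone. Their other day 1 arrays lay above all day 3 arrays, and their day 3 means were 77.9%, 75.4% and 84.6% of day 1. The controls SCorner3, dmr_3 and dmr_6 had higher means at day 3 than at day 1, with replicate 4 the lowest day 1 array there too.

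The total signal, the value that the software gives for a miRNA from all its probes, was nearly constant. It was 85616, 82037, 83556 and 84343 units at day 1. It was 80968, 78872, 78932 and 80560 units at day 3, and 80945, 81571, 83222 and 88921 units at day 5. All day 3 arrays lay below all day 1 arrays, and day 5 overlapped both.

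Among the saturated arrays this spread followed the size of the spots. On each array the total signal stood in a nearly fixed ratio to the summed spots of a miRNA, and that ratio went with the fraction of the spot area found on the image (0.56 to 0.617). On the arrays of days 1 and 5 the total signal spanned 9.85%. Divided by the spot size fraction, it spanned 0.428%, from 144053 to 144670 units. On the day 3 arrays the quotient was 143797, 138458, 137838 and 134203 units, below all arrays of the other days. The highest total signal of miR-21, on day 5 replicate 4, belongs to the array with the largest spot size fraction.

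**Figure D3:**
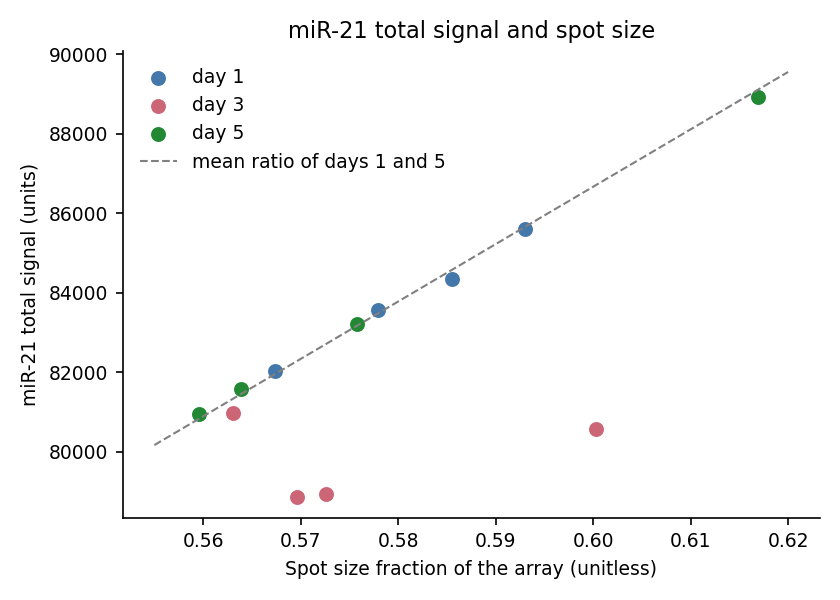
Total signal of miR-21 (units) against the spot size fraction of the array (no unit). Each point is 1 array, colored by day, and the dashed line is the mean ratio of the arrays of days 1 and 5. The arrays of days 1 and 5 lie on the line, while 3 of the day 3 arrays lie below it and the fourth, with a quotient of 143797 units, lies just under it.

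miR-21 was at or near the top of every array. It ranked first in total signal on all 4 day 5 arrays and on 3 of the 4 day 3 arrays, and between 2 and 4 on the day 1 arrays. miRNAs above it at day 1 were miR-223, a miRNA of granulocytes and monocytes, miR-1224 and an entry named miR-2138, which were saturated there as well, so that the order among them is not measured. The entry miR-1937b, with 50 saturated spots at day 3 and 80 at day 5, stands to miR-21 in the same way, so at days 3 and 5 the order of these 2 is not measured either. Its share of the summed signal of all detected miRNAs was 4.32% to 5.78% at day 1, 7.15% to 8.12% at day 3 and 5.15% to 6.48% at day 5. The share depends on the sum of the others as well as on miR-21.

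Saturation of this extent was rare. Of the 696 miRNAs, 12 had a saturated spot on at least 1 array. Apart from miR-21, 1 entry, miR-1937b, had saturated spots on all 12 arrays, 169 in all. miR-21 was the 1 miRNA with most of its spots saturated on every array. For contrast, miR-223 had 80 saturated spots at day 1, none at day 3 and 8 at day 5. Its total signal was 82084 to 85627 units at day 1 and, within the range of the scanner, 39484 to 47670 units at day 3.

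The study's normalization replaces the values of an array by those of a common distribution according to rank. For miR-21 this gave 4 distinct log2 values over 12 arrays, from 16.01 to 16.34, and 7 arrays shared the highest. The normalized log2 values were 16.10, 16.01, 16.30 and 16.10 at day 1. They were 16.34, 16.34, 16.30 and 16.34 at day 3, and 16.34 on all 4 day 5 arrays. The values are thus ranks among the brightest miRNAs, and the day 1 arrays are lower because other saturated miRNAs were ranked above miR-21 there. In the authors' own normalized table miR-21 had 6 distinct log2 values, from 16.08 to 16.35, and each was also held by 5 to 8 other features.

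miR-21 was not called as changed in these values by the main test. The moderated F test over the 3 days gave an adjusted p of 0.0279 (limma with Benjamini-Hochberg adjustment over 334 miRNAs), above the threshold of 0.01, while 62.9% of the tested miRNAs passed. On the same values the study's one-way analysis of variance, and limma with an intensity trend, fell below 0.01, so passing this threshold depends on the test. The study also required a minimum fold change, which was not applied here and which a log2 difference of 0.21 does not reach. The difference of the normalized log2 values was 0.20 from day 1 to day 3 (SE 0.07, limma adjusted p = 0.025), 0.21 from day 1 to day 5 (SE 0.07, limma adjusted p = 0.0185), and 0.01 from day 3 to day 5 (limma adjusted p = 0.981). Day 5 and day 1 did not overlap (exact permutation p = 0.0286, n = 4 against 4), while day 3 overlapped both (exact permutation p = 0.0571 against day 1). In these pairs 52.4%, 60.8% and 25.4% of the miRNAs were called. These differences in miR-21 are differences in rank at the ceiling and not in amount.

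The direction from day 1 to day 3 turned with the scaling. Without normalization it was -0.07 (limma adjusted p = 0.529). With the 75th percentile over miRNAs that every array detected as divisor, it was 0.65 (limma adjusted p = 0.00367), and from day 3 to day 5 -0.67 (limma adjusted p = 0.00692). The 75th percentile itself lay between 5726 and 7580 units at day 3, against 8106 to 12713 at day 1 and 9567 to 11876 at day 5, so the scaled value of a feature fixed at the ceiling goes up where the rest of the array is dimmer. Relative to the median of all tested miRNAs, which was -0.77 without normalization and -0.07 with the 75th percentile, miR-21 stood higher under both scalings. Its signals on both days are lower limits, so no change relative to other miRNAs is read from this. From day 1 to day 5 the value was -0.0047 without normalization and -0.01 with the 75th percentile. Whether miR-21 was higher or lower at day 3 was not settled by these arrays.

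Scaling also moved the split of all calls. Of the miRNAs called from day 1 to day 3, 52% were higher in quantile normalized values and 19% without normalization. From day 1 to day 5 the share was 52.2%, with 38.9% after 75th percentile scaling and 38.7% without normalization, and from day 3 to day 5 it was 57.6%, with 33.8% and 94.2%.

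**Figure D4:**
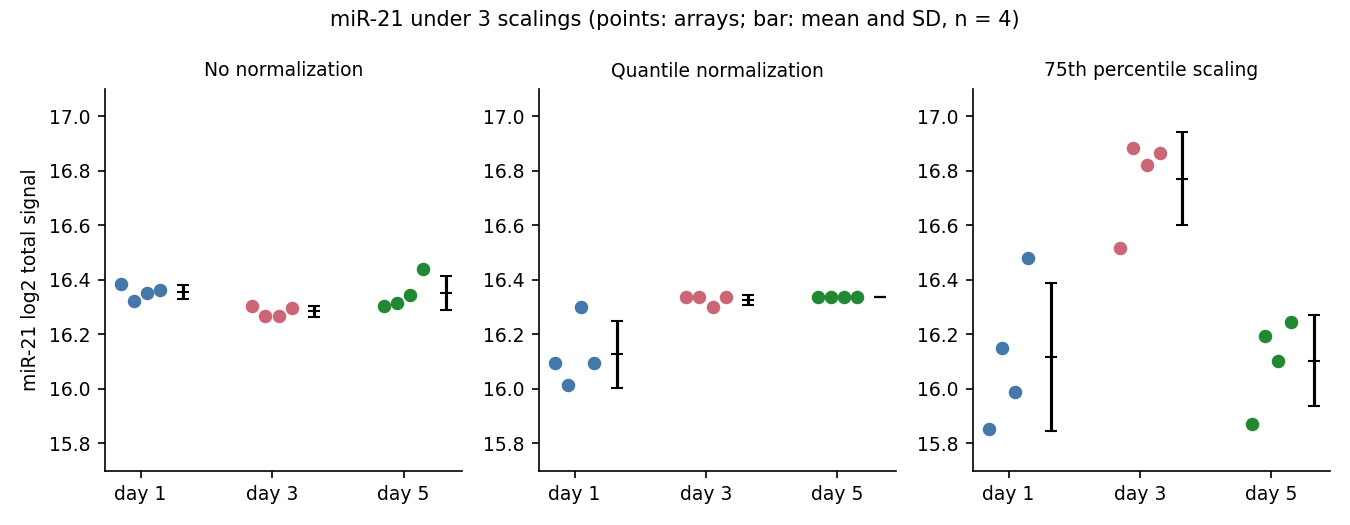
Log2 total signal of miR-21 per array without normalization, after quantile normalization and after scaling by the 75th percentile, with the mean and SD of each day (n = 4) in black. Day 3 is the lowest day on the left, level with day 5 in the middle and the highest on the right, with differences from day 1 of -0.07, 0.20 and 0.65. The vertical axis does not start at 0.

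The shorter probe was also fitted on its own, together with all 847 probes of the tested miRNAs. In quantile normalized values it differed by 0.19 from day 1 to day 3 (SE 0.09, limma adjusted p = 0.0985), by 0.22 from day 1 to day 5 (SE 0.09, limma adjusted p = 0.0545) and by 0.03 from day 3 to day 5 (limma adjusted p = 0.872). Of all probes 40.0%, 47.7% and 16.9% were called in these pairs. Without normalization the difference from day 1 to day 3 was -0.11, and with 75th percentile scaling it was 0.77 (limma adjusted p = 0.00257), so here too the sign follows the scaling. The longer probe differed by 0.05 in both comparisons with day 1 and was not called.

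miR-21*, the strand that is mostly degraded after the duplex is opened, was far from the ceiling and near the detection limit. It has 4 probes of 12 to 15 bases. Its total signal was 78.7, 72.3, 134 and 107 units at day 1 and was detected on 3 of the 4 arrays. It was 60.2, 27.2, 57.6 and 12 units at day 3 and was detected on 0 of 4. It was 86.2, 61.2, 63.6 and 22.3 units at day 5, detected on 3 of 4. Before normalization day 3 lay below day 1 without overlap (exact permutation p = 0.0286), and day 5 overlapped both. The same lack of overlap between day 3 and day 1 was seen for 50.7% of the 148 miRNAs detected on all 12 arrays. Day 3 lay on its own slide, so day and slide cannot be told apart for miR-21* either. After quantile normalization the difference was -0.30 from day 1 to day 3 (SE 0.39, limma adjusted p = 0.527) and 0.17 from day 1 to day 5 (SE 0.39, limma adjusted p = 0.724), the latter within an interval of -0.70 to 1.04. The sign of the latter was negative under every other scaling that was run.

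**Figure D5:**
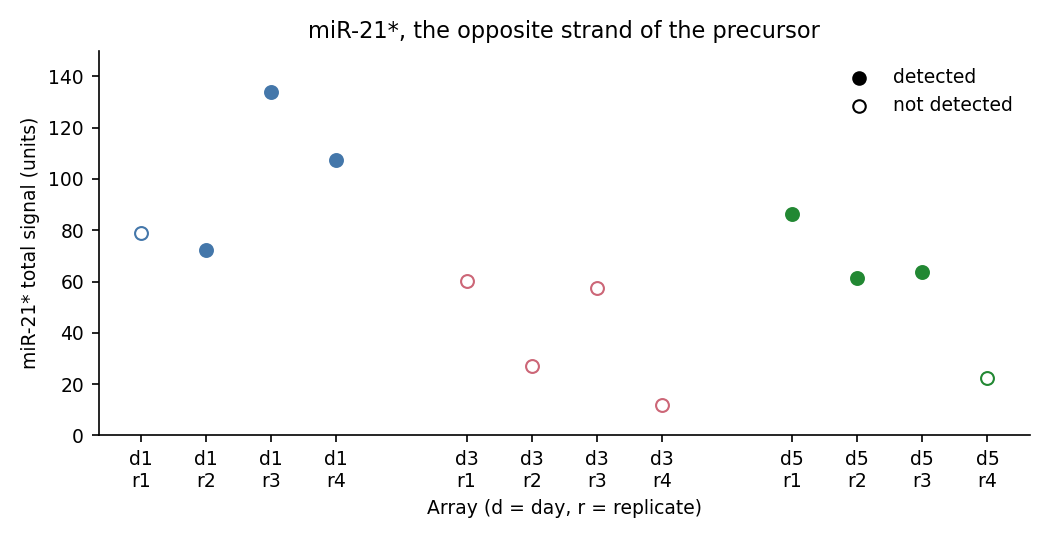
Total signal of miR-21* (units, background subtracted, not normalized) on each array, filled where the strand was detected and open where it was not. At day 3 all 4 points are open, between 12 and 60.2 units.

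The log2 difference between the strands within an array averaged 9.78 (SD 0.41, n = 4) at day 1. Day 3 averaged 11.26 (SD 1.10, n = 4), and day 5 averaged 10.64 (SD 0.91, n = 4). With the guide strand saturated on all arrays and miR-21* not detected at day 3, these are lower limits, and a difference between such limits is no bound, so no change of the strands relative to each other is read from them.

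The normalized pattern most like that of miR-21, by Pearson correlation over the 12 arrays among 147 other miRNAs detected on all of them, was that of miR-30c (r = 0.96), followed by miR-30d (0.96), miR-19a (0.92), miR-350 (0.91) and miR-34a (0.91). This describes likeness to a rank at the ceiling, and the arrays share day and slide. With 75th percentile scaling the r of these 5 miRNAs was between -0.14 and 0.52, and none of them was among the 5 most like.

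Other miRNAs known from osteoclast formation were within the range of the scanner and give the setting. Of 7 other promoters of osteoclast formation, 6 were tested (miR-31 was not detected), and 5 rose and 1 fell from day 1 to day 5, with a median log2 difference of 1.43 (also 1.43 with undetected days at their bound) against 0.11 for all tested miRNAs (0.23 with bounds), of which 31.7% rose and 29.0% fell. miR-29a, which acts on cytoskeletal and adhesion genes of osteoclasts, rose by 0.95 (SE 0.07, limma adjusted p = 7.44e-07). miR-29b rose by 1.90 (SE 0.15, limma adjusted p = 1.13e-06). miR-29c, of the same family as miR-29a and miR-29b, rose by 0.95 (SE 0.07, limma adjusted p = 5.18e-07). The promoters that rose are therefore not all separate families. The list was chosen with earlier results of these data known, so its count is not read as a result about the list. miR-183, whose target Hmox1 restrains osteoclasts, was detected on 0 of 4 arrays at day 1 and on 4 of 4 at day 5, at a normalized log2 value of 8.74. miR-214, which is also high in stromal cells, passed the test as well (limma adjusted p = 0.000719). It was detected on 1 of 4 arrays at day 1, with normalized log2 values from 0, the floor, to 5.65, and on 3 of 4 at day 5, with values from 7.68 to 9.18, so no size is given. miR-148a fell by 0.43 (limma adjusted p = 0.000177). Over the alternative settings the differences of miR-29a and miR-148a kept their call but ranged from 0.61 to 1.00 and from -1.03 to -0.37.

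Of 9 suppressors, 7 were tested, and 3 rose, 1 fell and 3 did not pass the test, with a median of 0.25 (0.46 with bounds). Among all tested miRNAs 31.7% rose and 29.0% fell, with a median of 0.11 (0.23 with bounds). These few suppressors are not read as a result about the list either. miR-34a rose by 1.00 (SE 0.12, limma adjusted p = 2.52e-05). miR-125a-5p, which acts on Traf6, rose by 1.92 (SE 0.27, limma adjusted p = 7.5e-05). miR-146a, which acts on Traf6 and Irak1, rose by 1.16 (SE 0.20, limma adjusted p = 0.000343). miR-155, which acts on Mitf, fell by 1.05 (SE 0.25, limma adjusted p = 0.00368), with detection on 4 arrays at day 1, 0 at day 3 and 3 at day 5. This call was lost for miR-155 in 5 of 14 alternative settings (with no filter and with 4 other scalings; adjusted p up to 0.127) and without day 1 replicate 1 or 3 (adjusted p = 0.0103 and 0.0118), and its difference ranged from -2.80 to -0.40. That of miR-125a-5p kept its call and ranged from 1.12 to 4.29.

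miR-21 belongs with the miRNAs that NF-kB, AP-1 or STAT3 induce. Of 10 others of that kind, which include miR-146a and miR-155 again, 7 were tested, and 2 rose, 3 fell and 2 did not pass the test from day 1 to day 5, with a median of 0.05. The shares over all tested miRNAs were 31.7% rising and 29.0% falling, with a median of 0.11, so these few are not read as a result about the list. miR-132 fell by 0.93 (SE 0.17, limma adjusted p = 0.000571) and miR-146b fell by 0.71 (SE 0.15, limma adjusted p = 0.00144). The fall of miR-132 was not steady: it was detected on 4, 0 and 3 arrays at days 1, 3 and 5. Its mean normalized log2 values on these days were 8.59, 6.58 and 7.66. miR-221 rose by 0.41 (SE 0.08, limma adjusted p = 0.00123). miR-221 lost its call in 3 of 15 alternative settings: it differed by 0.14 with unsaturated probes only (adjusted p = 0.321), by 0.27 with the 75th percentile over detected miRNAs and by 0.28 without normalization. miR-146b lost its call in 2 of 15 (adjusted p up to 0.0193), with differences from -1.21 to -0.48, and miR-132 in none, with differences from -1.59 to -0.50. miR-212 was counted as not measured, since the array names the entry miR-212-3p. That entry, added after its values were seen, rose by 0.85 (SE 0.23, limma adjusted p = 0.00749), and with it 8 were tested and 3 rose. In the same comparison miR-21 differed by 0.21 and was not called.

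Marker miRNAs of other cell types differed in level over the same days. The summed normalized signal of the 2 tested erythroid miRNAs was 25488 to 38092 units at day 1, 1285 to 2139 at day 3 and 136 to 268 at day 5. That of the 5 stromal miRNAs was 437 to 666, 591 to 669 and 2600 to 3630 units. Of the erythroid miRNAs, miR-144 was detected on 2, 0 and 0 arrays at days 1, 3 and 5, and miR-451 on 4, 4 and 3. From day 1 to day 5, 4 stromal miRNAs rose and miR-145 did not pass the test (-0.13, limma adjusted p = 0.918). At days 1, 3 and 5 miR-143 was detected on 0, 0 and 3 arrays, miR-214 on 1, 0 and 3, and miR-145 on 1, 0 and 0. The highest of the 5 at day 5 was miR-199a-3p, with a mean normalized log2 value of 10.60. The 3 lymphoid miRNAs summed to between 1626 and 2758 units on all arrays, but did not move together. Of these miR-150, the marker of mature lymphocytes, was detected on 4 of 4 arrays at day 1 and on 0 at days 3 and 5, miR-181a fell by 0.80 from day 1 to day 5 (limma adjusted p = 0.000641), and miR-181b differed by 0.45 (limma adjusted p = 0.0101). miR-126-3p, a marker of megakaryocytes and endothelial cells, had 578 to 893 units at day 1, detected on 4 of 4 arrays. At days 3 and 5 it was detected on 0 of 4, so its 8.76 to 33.7 units at day 5 are not a measured level. With undetected days at their bound, its log2 difference from day 1 to day 5 was -4.47. The 3 myeloid miRNAs, which osteoclast precursors carry, are miR-142-3p, miR-142-5p and miR-223. Their sum was 98968 to 107910 units at day 1, 77279 to 88317 at day 3 and 83340 to 96010 at day 5. Most of it was miR-223, with 80680 to 82738 units at day 1, where it was saturated, and 59849 to 61319 at days 3 and 5. They did not move together. From day 1 to day 5 miR-223 differed by -0.43 (limma adjusted p = 2.28e-05). It had 80 saturated spots at day 1 and 8 at day 5, so the size of this difference is not measured. The call of miR-223 was lost in 2 of 14 alternative settings (limma adjusted p up to 0.265), with differences from -0.52 to -0.18. miR-142-3p differed by 0.57 (limma adjusted p = 0.0287) and miR-142-5p by 0.10 (limma adjusted p = 0.567), and neither passed the test. Between 186 and 276 miRNAs were detected per array. The lowest count, 186, was that of day 5 replicate 4, where the other day 5 arrays had 248 to 269. The array control named NegativeControl averaged 50.8 units there, the highest of the 12 arrays. The part of this array in the missing detections at day 5 was not tested. The part of the marker differences in the values of miR-21 was not tested either.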

How the data were processed

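The 12 single-color miRNA arrays each carry RNA of 1 culture, 4 cultures per day. Intensity values on a linear scale were read from the scanner files that the authors deposited (Agilent Feature Extraction 9.5.3.1). They have had the background subtracted and have not been scaled between arrays. As an alternative, the log2 values of the authors' table were used, which they had quantile normalized. In the present work, the 334 mouse miRNAs with detection on any array were kept, and their total signals were quantile normalized, raised to a floor of 1, converted to log2 and fitted with limma 3.58.1 in R 4.3.3 (lmFit, eBayes), with 1 mean per day and an adjusted p under 0.01 as the threshold. For probes, the mean processed signal over the spots without an outlier flag was treated likewise, while the array means of the miR-21 probes in the text include the 17 spots of miR-21 that carry such a flag. Single values were compared by exact two-sided permutation of 4 arrays against 4, with 0.05 as the threshold. Saturation marks and counts of saturated pixels were taken per spot. Python 3.11.15 was used otherwise.

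Alternatives covered the filter, the scaling, the signal used, background correction (normexp, offset 50), a floor of 0.1, the test, the replicate number as a block, and each array left out. Named are miR-21, miR-21*, miRNAs that share the seed, the 5 miRNAs most like miR-21, saturated miRNAs, and lists of osteoclast promoters, suppressors, responders to NF-kB, AP-1 or STAT3, and cell type markers. The member and the lists were chosen with earlier results of these data known. Sequences and positions are from RefSeq (GRCm38.p6), and both array names searched were matched to that table through their probes. Cultures are the replicates, and their number, 4 per day, limits the precision. A spot with saturated pixels gives a lower limit only. The fit and the permutation test were tested on simulated data.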

Additional observations from a re-analysis of the deposited data

Results flagged for a closer look

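In some groups of 4 arrays 1 array lay far from the other 3, by Dixon's gap test at the 95% level, which chance alone passes in about 1 of 20 groups. 72 groups were examined. At day 1, replicate 4 had the lowest share of saturated pixels for both miR-21 probes, 98.9% for the longer and 93.7% for the shorter, and the lowest mean processed signal of the shorter probe, 64760 units. At day 3 replicate 3 had the lowest normalized log2 value of miR-21, 16.30, where the other 3 shared 1 value. Other day 3 arrays that stood apart had the highest normalized log2 value of miR-148a (10.66), of miR-155 (5.84) and of miR-223 (15.90). At day 5 an array had the lowest value of miR-155 (6.05) and another the highest of miR-221 (14.45). For miR-21, miR-148a, miR-223 and miR-221 the other 3 arrays were tied by the quantile normalization.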

How the results depend on the processing

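miR-21 itself could not be followed with unsaturated probes only, since both of its probes were saturated, and the planned reference of miR-16, miR-103 and miR-191 was not run because miR-191 was not detected on every array; miR-16 and miR-103 were used instead, chosen after seeing the data. The F test of miR-21, above 0.01 as reported, fell below it with 7 of 15 alternatives: detection on all 12 arrays (adjusted p = 0.00737), the 75th percentile over detected (0.0035) and over all miRNAs (0.00964), the median (0.00893), miR-16 and miR-103 (0.000695), an intensity trend in limma (0.0041) and the methods' one-way analysis of variance (0.0063). From day 1 to day 3 the log2 difference then passed at 0.20 (detection on all 12 arrays, intensity trend), 0.65, 0.72, 0.68 and 0.74 (both percentiles, the median, the 2 references), and was -0.071 without normalization. From day 1 to day 5 it passed at 0.21 with detection on all 4 arrays of a day, on all 12 arrays, with no filter and with the trend, and was -0.014 (75th percentile over detected miRNAs) and -0.0047 (no normalization). From day 3 to day 5 it was -0.67 and -0.43 (both percentiles), -0.35 (median) and -0.73 (the 2 references). The shorter probe gave 0.77 from day 1 to day 3 and -0.60 from day 3 to day 5 with the 75th percentile, and -0.11 from day 1 to day 3 without normalization. miR-21* from day 1 to day 5 was -0.26 (no filter), -0.87 and -0.56 (both percentiles), -0.53 (median), -0.86 (no normalization), -0.84 (the 2 references), -0.73 (deposited table), and -0.041 and -0.016 without day 1 replicate 1 or 2, within a range of -0.041 to 0.39 with 1 array left out. The cause of these turns was not tested beyond the scaling values given above.

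The count of miRNAs called was 80 from day 1 to day 3 and 109 from day 1 to day 5 with detection on all 12 arrays, where fewer were tested, 115 from day 1 to day 3 in the deposited table, and 40 from day 3 to day 5 with the 75th percentile over all miRNAs, against 175, 203 and 85. With 1 array left out, the counts were 150 to 187, 185 to 201 and 63 to 90. The F test of miR-21 ranged from 0.00174 to 0.0739, and its differences from 0.18 to 0.28, 0.19 to 0.29 and 0 to 0.01; without day 1 replicate 3 the F test and both comparisons with day 1 passed (0.00174, 0.28, 0.29). The shorter probe ranged from 0.13 to 0.29, 0.16 to 0.32 and 0.02 to 0.04, passing from day 1 to day 5 without day 1 replicate 1 (0.32). The change of the log2 difference between miR-21 and miR-21*, computed from limits at both ends and read as no result, was 1.47, 0.86 and -0.61 (exact permutation, adjusted p = 0.0857, 0.171 and 0.343); quantile normalized values gave 0.50 and 0.039 for the comparisons with day 1 (adjusted p = 0.557 and 0.857). With 1 array left out it ranged from 0.99 to 1.76, 0.42 to 1.11 and -1.05 to -0.13; without day 5 replicate 1 the adjusted p was 0.0429 for day 3 against day 1 (1.47) and for day 5 against day 1 (1.11). Saturated pixels of the shorter probe from day 1 to day 5 ranged from -0.0945 to 2.02 percentage points.

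No source says what the replicate numbers stand for. Of 12 pairs of same-numbered arrays 11 had deviations correlated over 0.1, and day 1 and day 5 replicate 4 had r = 0.0868 (highest r 0.784). In 19 of 24 comparisons the own number was the best match, a hint from the data and not from the design that the numbers share something. With the replicate block the adjusted p of miR-21 was 0.0542 for the F test, 0.0442, 0.0346 and 0.977 for the pairs, with 176, 200 and 74 miRNAs called, and the block changed no call for miR-21, its shorter probe or the strand difference (adjusted p 0.1875 to 0.25). Of 577 recomputed values of 22 other comparisons of named miRNAs, 533 kept direction and call, 35 kept direction and lost the call, and the 9 of miR-21* above changed sign.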
